A study of Mus musculus with 12 samples.

Results

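The surface Toll-like receptors and the partners of TLR4 were followed in whole frozen skin on a NanoString mouse immunology panel, a hybridisation assay that counts colour-coded barcodes for each gene. The set was given as a list of 7 genes, Tlr1, Tlr2, Tlr4, Tlr5, Tlr6, Ly96 and Cd14. A probe row mapped to 6 of the 7, out of 561 gene probes, and Tlr6 was not analysed here. All 6 genes lay above background in enough libraries to be tested, so none was lost to the filter on low values.

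The skin came from 12 female mice, with 1 library per mouse and 4 mice in each of 3 groups. Every recipient, littermates included, was given OT2 CD4+ T cells that had been cultured for 10 days and skewed towards Th2. Skin was taken at the first sign of disease, after about 3 to 4 weeks, and the littermates' skin came from similar body sites. The Merkel het CLE mice carried rtTA and K5TGO, which let the skin express the autoantigen, together with Atoh1flox/wt and K14Cre+. The labels describe a partial loss of Merkel cells in them. Their TLR9 genotype was wt/wt in replicates 1 and 2 and ko/ko in replicates 3 and 4, and their skin disease scores ran from 2 to 3. The CLE mice were rtTA+K5TGO+ animals of the parental strain with Merkel cells, all TLR9 ko/ko, with scores from 1 to 3. The littermates lacked rtTA, K5TGO or both, could not express the autoantigen and scored 0. Replicate 1 of the littermates was TLR9 ko/wt and the other 3 were ko/ko. Littermates 1 and 2 were K14Cre-, with Atoh1flox/flox and Atoh1wt/wt. Littermate 3 was Atoh1flox/wt K14Cre+, and littermate 4 was Atoh1flox/flox K14Cre+, which the labels describe as having lost all Merkel cells. K5 and K14 are keratin promoters of the basal epidermis, so the transgenes act in keratinocytes. No age is given for the mice. The titles of Merkel het CLE 1 and 2 and of littermates 1 and 2 share the number 23, whose meaning is not given. No other number is shared between groups. Within groups, CLE 3 and 4 share 167a, and littermates 3 and 4 share 38.

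Toll-like receptors are sensors of microbial molecules and of molecules set free by damaged tissue. TLR2 pairs with TLR1 or TLR6 to bind bacterial lipopeptides, and TLR5 binds flagellin. TLR4 binds lipopolysaccharide together with MD-2, which Ly96 encodes, and CD14 passes lipopolysaccharide to this complex. All signal through the adaptor MyD88 towards NF-kB, and TLR4 also signals through TRIF. In skin they are found on keratinocytes, macrophages, neutrophils and dendritic cells.

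The recovered barcode counts ran from 99297 to 682046 per library. Littermate 2, with 99297, and CLE 1, with 134994, stood apart, with lane factors of 4.04 and 5.56 against 0.715 to 2.47 in the other 10 libraries. Their negative controls averaged 50.04 and 62.55 units, against 9.66 to 27.5 units elsewhere. Values are in units of the deposited signal, and levels of different genes were not compared because probes differ. Of the epithelial markers listed, 2 of 6 were on the panel, Defb1 and Tnfsf11. Both were tested, but Tnfsf11 lay below background in all 4 littermates. Of the 4 Merkel cell markers listed, 0 were on the panel. The Tlr9 probe read 27.4 to 55.8 units in Merkel het CLE skin, 34.6 to 156 units in CLE skin and 21.7 to 109 units in littermate skin. No source used here says whether this probe lies in the deleted sequence, so it could not check the genotypes.

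Cd14 stood out among the 6 genes, since its deposited value in all 8 diseased libraries lay above that of every littermate. It read 643, 160, 2187 and 608 units in Merkel het CLE replicates 1 to 4. In CLE skin it read 6533, 412, 109 and 139 units. In littermate skin it read 68.1, 84.9, 87.1 and 64.2 units, with littermate 2 below its lane's background at 21 recovered counts. That background was 116 units, above the value of CLE 3, so the order of these 2 mice is not settled. The diseased libraries therefore spread over a wide range while the littermates lay close together. The means were 899 ± 886 units in Merkel het CLE skin, 1798 ± 3160 units in CLE skin and 76.1 ± 11.6 units in littermate skin (SD, n = 4 each).

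In both disease groups the Cd14 difference from littermates missed the threshold. With limma on log2(value + 1), all 12 libraries in 1 fit and Benjamini-Hochberg adjustment over 451 genes, Cd14 differed by 3.00 ± 1.11 on the log2 scale between Merkel het CLE and littermate skin (SE, adjusted p = 0.0875). This is 7.97-fold, with a 95% interval from 1.49 to 42.7. Between CLE and littermate skin the difference was 2.56 ± 1.11 (adjusted p = 0.162). For the mean of the 2 disease groups against littermates it was 2.78 ± 0.96 (adjusted p = 0.0757). CLE 1 held much of the CLE value, since the difference was 1.28 without it and 3.24 without CLE 3, the library with the lowest Cd14 of the group.

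**Figure D1:**
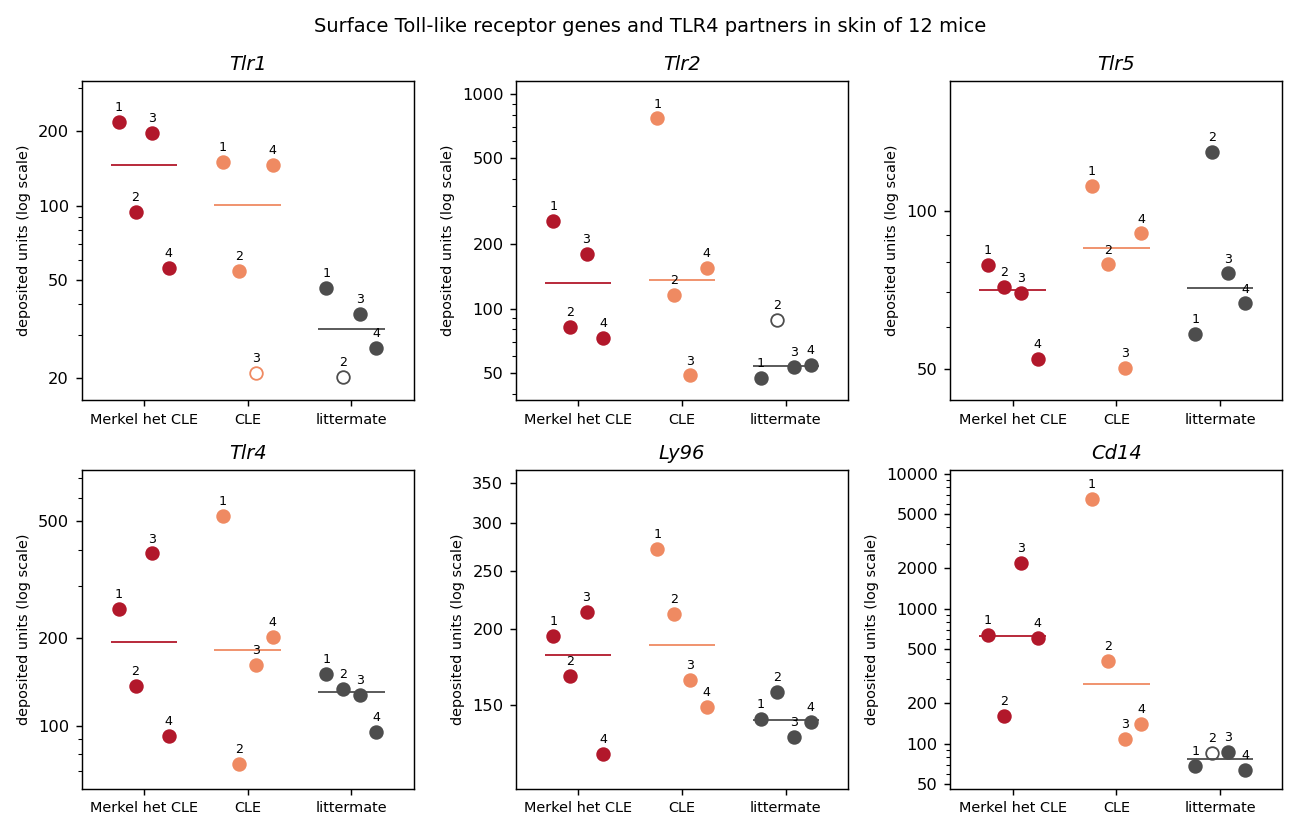
Values of the 6 genes in each library, in deposited units on a log axis, with Merkel het CLE, CLE and littermate skin side by side. Points are mice, numbered by replicate, open points lie below the lane's background, and lines are group medians. By deposited value, Cd14 is higher in all 8 diseased mice than in the 4 littermates, of which littermate 2 lies below background. Tlr5 and Ly96 span a narrow range.

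Tlr4, the receptor chain of the complex, overlapped between groups. It read 250, 137, 388 and 92.4 units in Merkel het CLE skin and 523, 74.1, 162 and 202 units in CLE skin. In littermate skin it read 151, 133, 128 and 95.6 units. The lowest value of each disease group lay below the lowest littermate. The log2 difference was 0.58 ± 0.56 for Merkel het CLE against littermate (adjusted p = 0.503) and 0.59 ± 0.56 for CLE against littermate (adjusted p = 0.486).

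Ly96, which encodes MD-2, the subunit that holds lipopolysaccharide, was the steadiest of the 6 genes. It read 195, 167, 214 and 124 units in Merkel het CLE skin. It read 272, 212, 165 and 149 units in CLE skin, against 142, 158, 133 and 140 units in littermate skin. Littermate 2, at 158 units, lay above the lowest library of both disease groups, but at 39 recovered counts it was only 1.36 times its lane's background. Littermates 1, 3 and 4 lay below every CLE library, whereas Merkel het CLE 4 lay below every littermate. The log2 difference was 0.26 ± 0.27 for Merkel het CLE against littermate (adjusted p = 0.518), with a 95% interval from -0.32 to 0.85. For CLE against littermate it was 0.44 ± 0.27 (adjusted p = 0.295), with an interval from -0.14 to 1.02. Centring each library on its median turned both signs, to -0.07 and -0.04.

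Ratios taken within a library do not depend on the lane factor. The log2 ratio of the Cd14 to the Tlr4 value ran from 0.22 to 2.72 in Merkel het CLE skin, from -0.57 to 3.64 in CLE skin and from -1.15 to -0.55 in littermate skin. All 4 Merkel het CLE libraries lay above the littermates, and so did CLE 1 and 2. CLE 4, at -0.54, was hardly apart from the highest littermate, at -0.55. CLE 3, at -0.57, fell among the littermates. The ratio of littermate 2 rests on a Cd14 value below background. The log2 ratio of Ly96 to Tlr4 overlapped throughout, with -0.86 to 0.43 in Merkel het CLE skin, -0.94 to 1.52 in CLE skin and -0.09 to 0.55 in littermate skin. These ratios were not tested.

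Tlr1, the lipopeptide receptor that forms a heterodimer with TLR2, read 218, 94.0, 198 and 55.8 units in Merkel het CLE skin. In CLE skin it read 150, 54.3, 21.0 and 146 units, with CLE 3 below background at 15 recovered counts. In littermate skin it read 46.4, 20.2, 36.5 and 26.6 units, with littermate 2 below background at 5 recovered counts. By deposited value, all 4 Merkel het CLE libraries lay above all 4 littermates, whereas CLE 3 lay among the littermates. Littermate 2's background was 116 units, above Merkel het CLE 2 and 4, so their order against that mouse is not settled.

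The Tlr1 difference was the most precise of the larger ones, although it too missed the threshold. It was 1.95 ± 0.63 on the log2 scale for Merkel het CLE against littermate, or 3.88-fold with a 95% interval from 1.49 to 10.1 (adjusted p = 0.0635). It was 1.17 ± 0.63 for CLE against littermate (adjusted p = 0.247) and 1.56 ± 0.55 for both disease groups against littermates (adjusted p = 0.0757). Without CLE 3, the CLE difference was 1.75 (adjusted p = 0.0335).

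Tlr2, the shared chain of the lipopeptide receptors, read 257, 82.2, 180 and 73.2 units in Merkel het CLE skin and 767, 116, 48.9 and 154 units in CLE skin. In littermate skin it read 47.4, 89.0, 53.7 and 54.5 units, with littermate 2, the highest of these, below its lane's background at 22 recovered counts. Both disease groups overlapped the littermates, through littermate 2 on one side and through CLE 3 on the other. The log2 difference was 1.11 ± 0.70 for Merkel het CLE against littermate (adjusted p = 0.299) and 1.43 ± 0.70 for CLE against littermate (adjusted p = 0.209). The CLE value was 0.68 without CLE 1 and 2.00 without CLE 3.

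Tlr5, the flagellin receptor, showed no separation of the groups. It read 78.7, 71.5, 69.6 and 52.1 units in Merkel het CLE skin and 111, 79.0, 50.3 and 90.5 units in CLE skin. In littermate skin it read 58.3, 129, 76.0 and 66.6 units. The highest value of all 12 came from littermate 2, at 32 recovered counts or 1.12 times its lane's background. The next, CLE 1, lay at 20 recovered counts or 1.05 times its lane's background. The log2 difference was -0.22 ± 0.34 for Merkel het CLE against littermate (adjusted p = 0.676), with a 95% interval from -0.95 to 0.51. For CLE against littermate it was 0.02 ± 0.34 (adjusted p = 0.976), with an interval from -0.72 to 0.75. Its sign depended on the scaling and on single libraries.

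Promoter sequences are shown for Tlr1 and Tlr2, which differed most among the receptors, and for Tlr5, which differed least. RefSeq entries on GRCm38.p6, from 250 bases before to 50 bases after the start each entry gives, were at hand for 3 of the 6 genes. These starts differ from the starts of the listed gene spans. For Tlr2, with a listed span of chr3:83836272-83841824, every marked match falls inside the span. The Tlr1 match also falls inside its listed span, chr5:64924680-64933600. So does the Tlr5 match nearer the start of its entry, in chr1:182954752-182976044. For Tlr1 the more upstream of 2 entries was taken. Tlr1 lies at chr5:64933509-64933808 on the minus strand, Tlr2 at chr3:83841559-83841858 on the minus strand and Tlr5 at chr1:182954538-182954837 on the plus strand. Capitals mark matches to 3 motifs, searched on both strands without overlap between them: GGGNNNTTCC (NF-kB), GAGGAA (ETS factors) and GGGCGG (Sp1).
Tlr1: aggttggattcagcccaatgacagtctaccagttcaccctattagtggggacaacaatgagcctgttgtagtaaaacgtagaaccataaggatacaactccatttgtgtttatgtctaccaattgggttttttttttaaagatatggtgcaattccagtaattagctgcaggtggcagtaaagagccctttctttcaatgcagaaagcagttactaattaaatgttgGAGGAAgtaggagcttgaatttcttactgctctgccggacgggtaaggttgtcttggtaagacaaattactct
Tlr2: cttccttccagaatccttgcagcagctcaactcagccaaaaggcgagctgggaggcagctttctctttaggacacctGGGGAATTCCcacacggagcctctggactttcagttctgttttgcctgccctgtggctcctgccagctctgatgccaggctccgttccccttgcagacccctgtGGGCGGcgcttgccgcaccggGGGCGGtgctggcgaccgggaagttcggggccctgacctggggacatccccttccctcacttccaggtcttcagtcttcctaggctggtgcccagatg
Tlr5: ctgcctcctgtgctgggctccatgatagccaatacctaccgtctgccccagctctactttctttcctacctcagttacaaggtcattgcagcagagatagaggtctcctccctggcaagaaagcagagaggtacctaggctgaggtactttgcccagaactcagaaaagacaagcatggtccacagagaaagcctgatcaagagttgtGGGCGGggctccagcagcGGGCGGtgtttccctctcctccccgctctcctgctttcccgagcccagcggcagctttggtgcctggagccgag
Positions are counted from the entry's start. The Tlr2 window held 1 NF-kB match, at -173, and Sp1 matches at -69 and -48. The Tlr1 window held 1 ETS match at -23. The Tlr5 window held Sp1 matches at -42 and -24. Of 32851 promoters of the same length, 5.56% held the NF-kB motif, 28.3% the ETS motif and 35.7% the Sp1 motif. A match describes the letters and does not show binding.

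Counted over the set, limma called 0 of the 6 genes for Merkel het CLE against littermate, where it called 11.8% of the 451 genes. At an unadjusted p under 0.05 it marked Tlr1 and Cd14, 2 of 6, against 29.7% of all genes. Those 2 were also the members above littermates without overlap of deposited values, as were 13.7% of all genes. edgeR's quasi-likelihood test on recovered counts called Tlr1 (19.3% of all genes) and DESeq2 called Tlr1 and Cd14 (31.5% of all genes). Without CLE 1, limma called Tlr1 and Cd14 (18% of all genes), and without CLE 3 it called Tlr1 (20.8% of all genes). Over the panel, the 53 calls became 7, 9 and 15 without Merkel het CLE 1, 3 or 4, 30 without CLE 2, and 5, 4, 2 and 5 without littermates 1 to 4, with 0 members called in each. The median log2 difference was 0.84 over the 6 genes and 0.01 over all genes. Median centring lowered both by the same amount, to -0.33 over all genes.

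For CLE against littermate, limma called 0 of the 6 genes and 0% of all genes. At an unadjusted p under 0.05 it marked 1 member, Cd14, against 26.6% of all genes. Cd14 was also the 1 member without overlap of deposited values, as were 7.1% of all genes on the higher side. Its order between CLE 3 and littermate 2 is not settled, since littermate 2 lay below background. edgeR called 0 members (0.222% of all genes), and DESeq2 called Tlr2 and Cd14 (20.8% of all genes). Without CLE 3, limma called Tlr1, Tlr2 and Cd14, and 30.6% of all genes, and without CLE 1 it called 0 members and 0% of all genes. The median was 0.88 over the 6 genes and 0.35 over all genes. Median centring lowered both by the same amount, to -0.12 over all genes.

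With both disease groups set against littermates, limma called 0 of the 6 genes and 10.2% of all genes. At an unadjusted p under 0.05 it marked Tlr1 and Cd14, against 32.4% of all genes. Cd14 alone had no overlap of deposited values, as did 3.55% of all genes on the higher side, with the order of CLE 3 and littermate 2 not settled. edgeR called Tlr1 and Cd14 (20.2% of all genes), and DESeq2 called Tlr1, Tlr2 and Cd14 (30.2% of all genes). Leaving out CLE 3 gave 3 calls, Tlr1, Tlr2 and Cd14, beside 29% of all genes, and leaving out CLE 1 gave Cd14 alone, beside 9.76% of all genes. The panel count of 46 genes was 3, 0 and 18 without Merkel het CLE 1, 3 or 4, 10 and 18 without CLE 2 or 4, and 0 without any 1 littermate. The median was 0.93 over the 6 genes and 0.19 over all genes. Median centring lowered both by the same amount, to -0.22 over all genes.

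**Figure D2:**
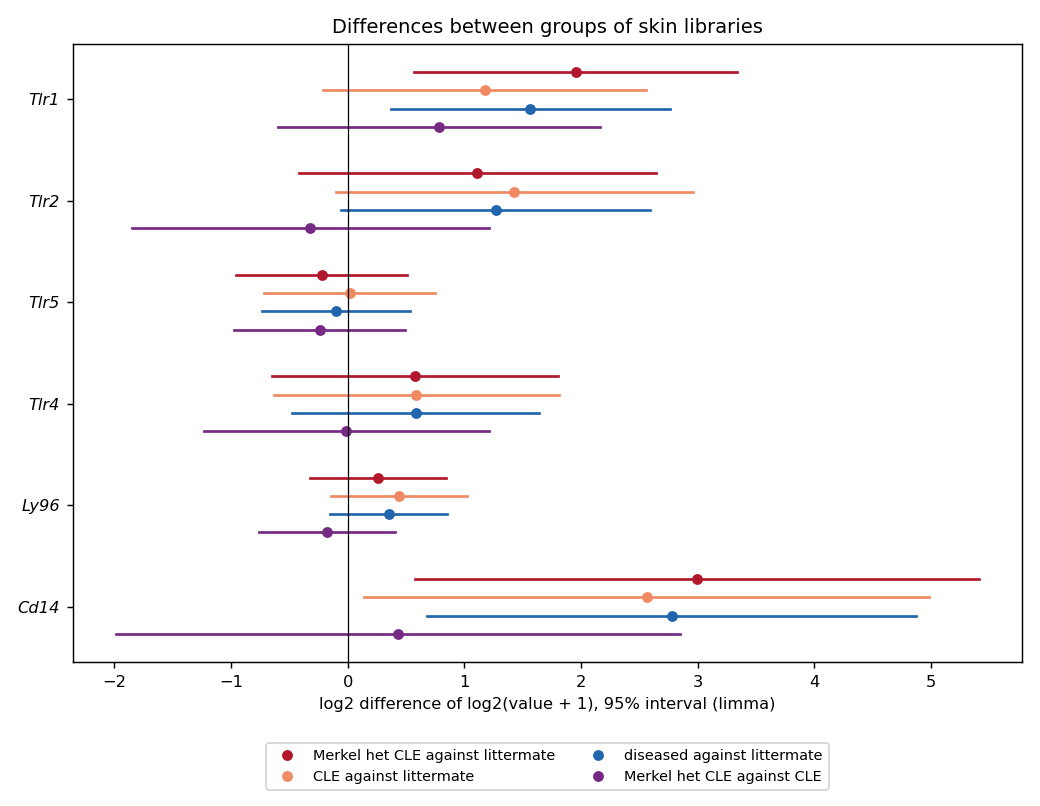
Differences of log2(value + 1) between groups for the 6 genes, as limma estimates with 95% intervals. The intervals of Tlr1 and Cd14 for Merkel het CLE against littermate lie above 0, and all intervals for Merkel het CLE against CLE span 0.

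No member was called between the 2 disease groups. For Merkel het CLE against CLE, limma called 0 of the 6 genes and 0.222% of all genes, and 0 members had an unadjusted p under 0.05, against 19.3% of all genes. edgeR and DESeq2 also called 0 members, beside 0% and 6.87% of all genes. The largest difference was that of Tlr1, at 0.78 ± 0.63 (adjusted p = 0.524), with a 95% interval from -0.60 to 2.16. Cd14 differed by 0.43 ± 1.11 (adjusted p = 0.884), with an interval from -1.99 to 2.85. Tlr2 differed by -0.32 ± 0.70, Tlr5 by -0.24 ± 0.34, Ly96 by -0.17 ± 0.27 and Tlr4 by -0.01 ± 0.56. These intervals are wide, and the test did not show that the groups were alike.

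The 8 diseased mice also differed in their skin disease score, so the slope per point of score was fitted with group as a term. Of the 6 genes, 0 passed, as did 0% of all genes, and edgeR and DESeq2 also called 0 members, beside 0% and 1.55% of all genes. Tlr1 had a slope of 1.01 ± 0.41 per point on the log2 scale (unadjusted p = 0.0379, adjusted p = 0.718), and it was the only member with an unadjusted p under 0.05, against 4.43% of all genes. The slope was 0.98 ± 0.51 for Tlr2, 0.64 ± 0.96 for Cd14, 0.59 ± 0.45 for Tlr4, 0.29 ± 0.24 for Tlr5 and -0.02 ± 0.25 for Ly96. CLE 3, with the lowest Tlr1, Tlr2 and Tlr5 of the 8, had a score of 1, the lowest given. The Cd14 slope was -0.22 without CLE 1. The median slope was 0.62 over the 6 genes and 0.14 over all genes.

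**Figure D3:**
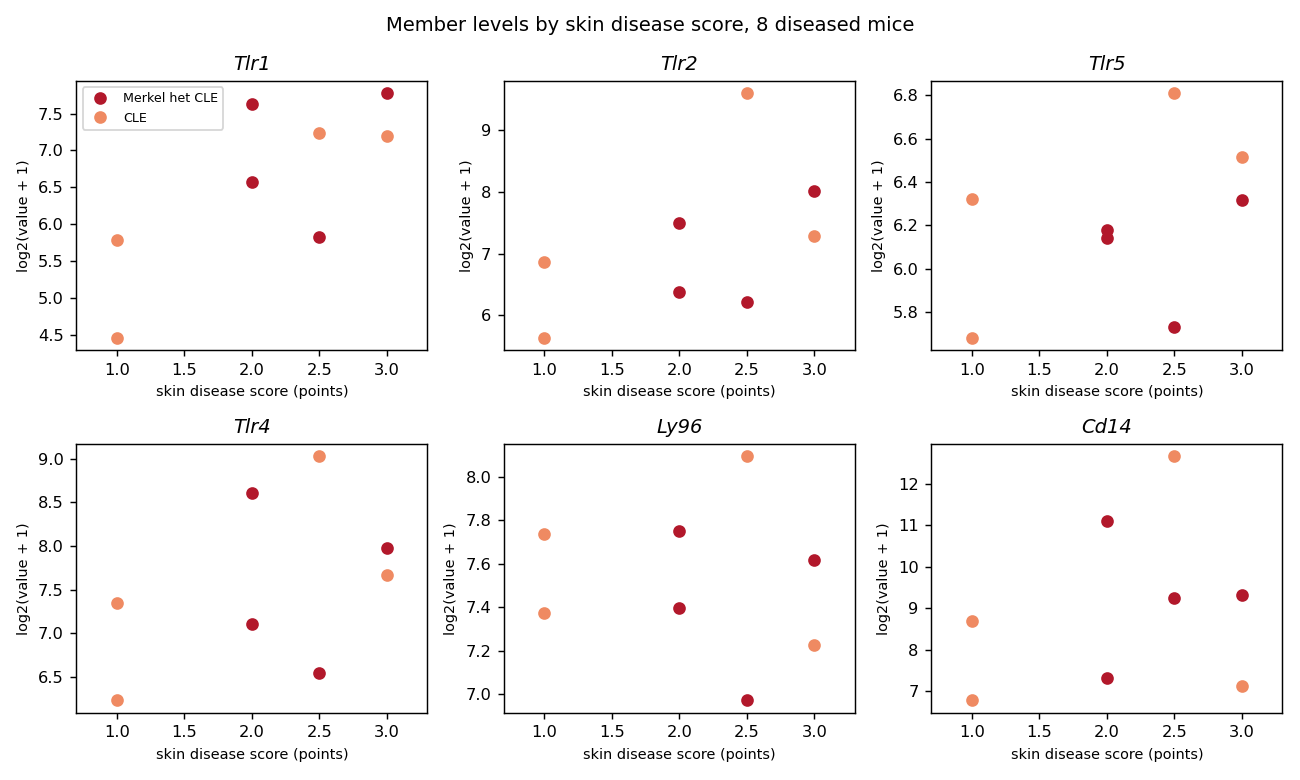
log2(value + 1) of the 6 genes against the skin disease score in points, 1 point per diseased mouse, in Merkel het CLE and CLE skin. Tlr1 is lowest in a mouse with a score of 1 and highest in one with a score of 3, while Ly96 shows no slope.

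The members also differed in how much they varied at all. Over the 12 libraries the SD of the log2 value was 2.13 for Cd14, 1.22 for Tlr1, 1.18 for Tlr2, 0.83 for Tlr4, 0.40 for Tlr5 and 0.33 for Ly96, and the median over all 451 genes was 0.68. By this measure Cd14 ranked 14 of 451 genes and Ly96 ranked 392. Within the littermates alone the SD was 0.22 for Cd14 and 0.51 for Tlr1, so the spread of Cd14 lay in the diseased libraries.

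Molecules that the pathway is known to bind or to induce were read from lists of their own. S100a8 and S100a9, alarmins reported to act on TLR4, rose in Merkel het CLE skin, with 6581 to 38203 units of S100a8 against 60.5 to 317 units in littermate skin. S100a9 differed by 7.11 ± 1.47 on the log2 scale and S100a8 by 6.62 ± 1.37 (adjusted p = 0.0246 for both). In all, 2 of the 5 tested genes among endogenous ligands and coreceptors were called higher and 0 lower, beside 11.8% of all genes called. The median was 1.26 in this list and 0.01 over all genes. Neither alarmin was called without Merkel het CLE 1 or 3, or without any 1 littermate, where the count over the list was 0 of 5.

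Genes below background in all 4 littermates entered the test only through the diseased libraries, so they were left out of the counts over lists. Of 11 target cytokines and enzymes that remained, 3 were called higher in Merkel het CLE than in littermate skin and 0 lower, and 11.8% of all genes were called. Il1b, the interleukin-1 cytokine, read 172 to 2151 units in Merkel het CLE skin and 18.1 to 45.6 units in littermate skin. It lay below background in 3 of 4 littermates. With those raised to their lane's background, it was at least 15.4-fold higher in Merkel het CLE skin (adjusted p = 0.0323 in the fit). Ptgs2, the inducible cyclooxygenase, differed by 4.10 ± 0.95 (adjusted p = 0.0261), with a mean of 1081 ± 778 units against 46.4 ± 20.6 units (SD, n = 4 each). Cxcl1, a neutrophil chemokine, was the other call (adjusted p = 0.0463), below background in 2 of 4 littermates. Il6, Ccl3 and Ccl4 were the 3 genes left out. For both disease groups against littermates the calls were Il1b, Ptgs2, Cxcl10 and Socs3, 4 of 11, beside 10.2% of all genes. For CLE against littermate limma called 0 of 11. In that comparison Cxcl10, an interferon-induced chemokine, differed by 4.02 ± 0.87 (adjusted p = 0.111). The count for Merkel het CLE against littermate was 0 of 11 without Merkel het CLE 1, 3 or 4 or any 1 littermate, 2 without CLE 2 and 5 without CLE 3. It was 6 with DESeq2 and 7 with array weights.

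Of 18 tested adaptors and kinases, 0 were called higher and 1 lower for Merkel het CLE against littermate, and of 12 tested NF-kB and IRF factors 1 was called higher. Over all genes the share called was 11.8%, and nothing particular to these lists is read from the counts. The lower call was Mapk14, the p38 kinase, at -0.73 ± 0.20 (adjusted p = 0.0399), with a mean of 705 ± 50.6 units in Merkel het CLE skin and 1171 ± 135 units in littermate skin (SD, n = 4 each). Myd88, the adaptor shared by the surface receptors, differed by 0.60 ± 0.23 for both disease groups against littermates (adjusted p = 0.0956). The higher call was Bcl3, an IkB family protein of the nucleus, at 2.00 ± 0.54 (adjusted p = 0.0399). Neither Mapk14 nor Bcl3 was called without Merkel het CLE 1, 3 or 4 or without any 1 littermate, and Bcl3 was not called without Merkel het CLE 2 or CLE 2. Mapk14 was not called with edgeR, with no filter or without littermate 2 and CLE 1 together.

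The endosomal receptors tested, Tlr3, Tlr8 and Tlr9, gave 0 of 3 calls in all 5 comparisons with limma. For Merkel het CLE against littermate, Tlr8 was called higher with array weights and with DESeq2. Tlr8, a receptor for RNA, differed by 1.15 ± 0.56 for Merkel het CLE against littermate (adjusted p = 0.192). Tlr3, a receptor for double-stranded RNA, differed by -0.57 ± 0.26 (adjusted p = 0.174). Of the pattern receptors of other families, Clec4e, the C-type lectin Mincle, and Trem1 lay below background in all 4 littermates and were left out of the count. Clec4e read 71.5 to 778 units in Merkel het CLE skin, at least 6.43-fold above the littermates with those raised to background. Of the 5 that remained, 0 were called for Merkel het CLE against littermate. The count was 1 with median centring, quantile normalization or background subtracted, 2 with edgeR or without CLE 1 or CLE 3, and 3 with array weights or DESeq2, where Msr1, a scavenger receptor, was called each time.

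**Figure D4:**
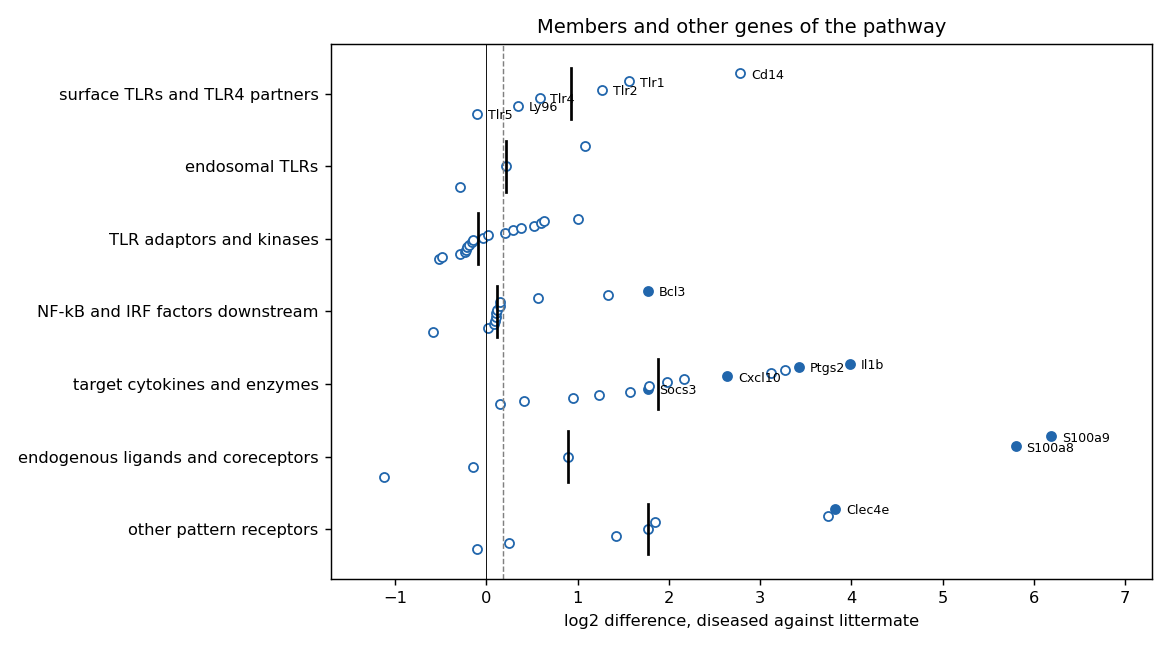
limma differences of log2(value + 1) for diseased against littermate skin, with 1 point per tested gene of each list. Filled points passed an adjusted p under 0.05, genes below background in all 4 littermates are drawn too, black bars are list medians and the dashed line is the median over all genes. The 6 members are open points, with Cd14 farthest to the right, and S100a8 and S100a9 differ most among the genes drawn.

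Markers of some cell types also differed between the groups. The summed level of 6 neutrophil markers, 5 of them tested, ran from 9965 to 61356 units in Merkel het CLE skin. It ran from 1477 to 237662 units in CLE skin and from 206 to 614 units in littermate skin. Cxcr2 lay below background in all 4 littermates. Of the other 4 tested, limma called 3 higher for Merkel het CLE against littermate, Csf3r, S100a8 and S100a9, beside 11.8% of all genes. S100a8 and S100a9 stand in the ligand list too, and inflamed keratinocytes also make them. They reached 139994 and 93820 units in CLE skin, and so made up most of its highest sum. CLE 1, highest in Cd14 and Tlr2, was highest in this sum, and CLE 3 and 4, lowest in Cd14 among the diseased mice, were lowest among them. The count was 0 of 4 without Merkel het CLE 1 or 3 or any 1 littermate, and 2 of 4, S100a8 and S100a9, without Merkel het CLE 4 or CLE 2. As a description, the mean log2 level of the 5 tested markers, Cxcr2 included, was set beside the members over the 12 libraries. Its Pearson's r was 0.80 with Tlr1, 0.85 with Tlr2 and 0.95 with Cd14. Without littermate 2 and CLE 1, these were 0.77, 0.82 and 0.93.

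The summed level of 12 monocyte and macrophage markers, 11 of them tested, ran from 2490 to 10919 units in Merkel het CLE skin. It ran from 2224 to 12922 units in CLE skin and from 2034 to 3864 units in littermate skin. These ranges overlap. For Merkel het CLE against littermate all 11 log2 differences were above 0, with a median of 1.17 against 0.01 over all genes, and limma called 0 of the 11. It called Msr1 without CLE 1, and Fcgr1, Fcgr4 and Msr1 without CLE 3. Array weights called 6 and DESeq2 5. For both disease groups against littermates limma called 1, Fcgr4, an Fc receptor, at 2.46 ± 0.69 (adjusted p = 0.0428), beside 10.2% of all genes. Over the 12 libraries the mean log2 level of the 11 tested markers had a Pearson's r of 0.92 with Tlr1, 0.80 with Tlr2 and 0.70 with Cd14, as a description. Without littermate 2 and CLE 1, these were 0.91, 0.92 and 0.64.

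Sums of 5 T cell markers were 135 to 238 units in Merkel het CLE skin, 309 to 473 units in CLE skin and 306 to 493 units in littermate skin. Of the 4 tested, 3 were called lower for Merkel het CLE against littermate, beside 11.8% of all genes. That count was 1 of 4 without Merkel het CLE 1 or 3 or littermate 1, 2 or 4, 2 of 4 without Merkel het CLE 4 or CLE 2, and 0 of 4 without littermate 3. Of 2 mast cell and basophil markers, 1 was called higher in that comparison, Fcer1a, a chain of the IgE receptor, at 2.22 ± 0.65 (adjusted p = 0.0463). It was not called without Merkel het CLE 1, 3 or 4, CLE 2 or any 1 littermate. Of 3 fibroblast markers all had a log2 difference above 0, with a median of 1.26, and 0 were called, or 2 without CLE 3. Their summed level ran from 2425 to 5973 units in Merkel het CLE skin, from 782 to 3866 units in CLE skin and from 1084 to 1702 units in littermate skin. Their mean log2 level had an r of 0.93 with Tlr1, 0.59 with Tlr2 and 0.55 with Cd14. Without littermate 2 and CLE 1, these were 0.95, 0.91 and 0.67. Of 2 dendritic, 2 B cell and 4 endothelial markers tested, limma called 0, and with array weights it called 2 endothelial markers. In whole skin, more cells of a type and more RNA per cell cannot be told apart, and the part of these cells in the Cd14, Tlr1 and Tlr2 values was not tested.

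**Figure D5:**
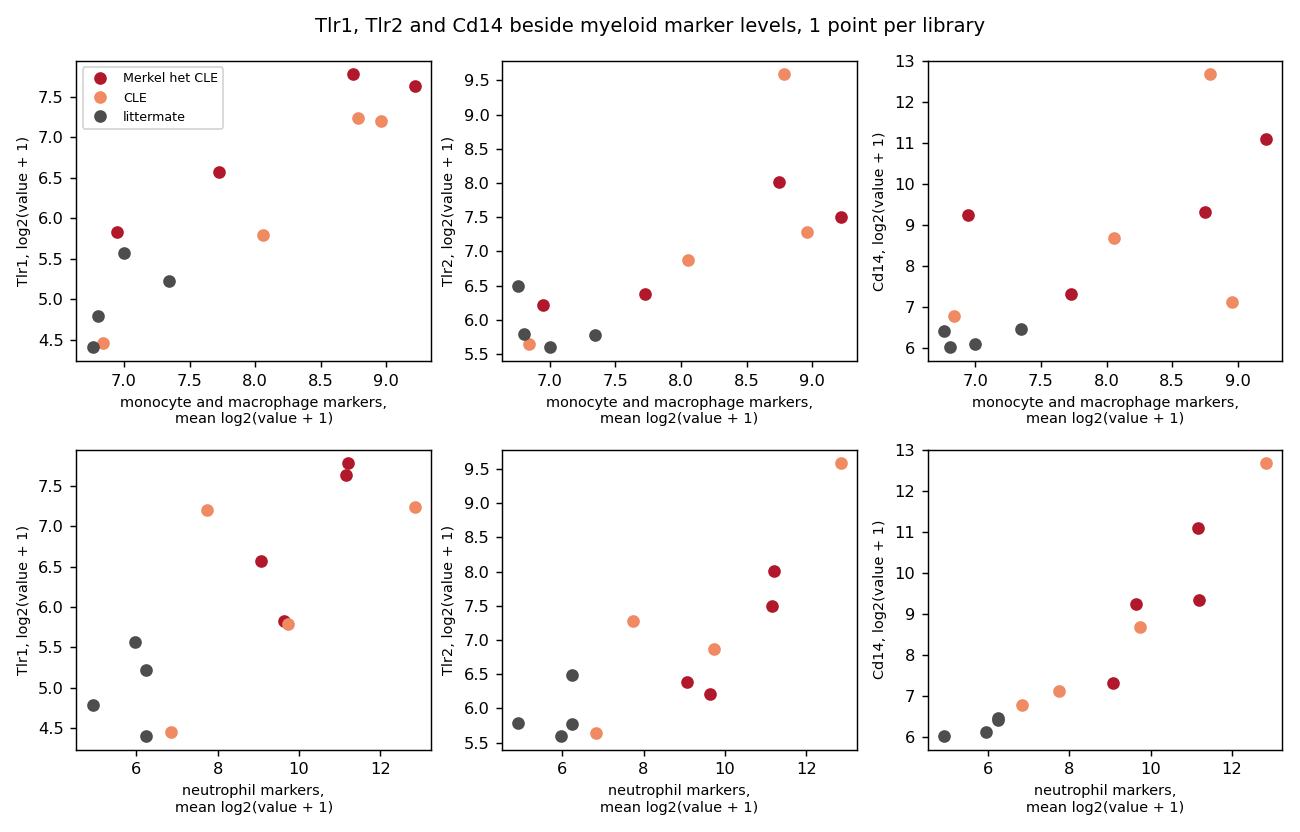
log2(value + 1) of Tlr1, Tlr2 and Cd14 against the mean log2(value + 1) of monocyte and macrophage markers (top) and neutrophil markers (bottom), with 1 point per library and colours for Merkel het CLE, CLE and littermate skin. Libraries high in Cd14 are high in neutrophil markers.

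For each member, the 3 tested genes whose log2 values were most like it over the 12 libraries were listed by Pearson's r, as a description, since the libraries share groups and lanes. Cd14 was most like Plaur, the urokinase receptor (r = 0.99), Trem1 (r = 0.98) and Clec4e (r = 0.97). Trem1 and Clec4e lay below background in all 4 littermates and were tested only through the diseased libraries. Their r therefore rests in part on values at background. Tlr1 was most like Tnfaip6 (r = 0.96), Tlr8 (r = 0.95) and Crlf2 (r = 0.95). Tlr2 was most like Cd80 (r = 0.96), Itgal (r = 0.95) and Itgb2 (r = 0.94). For Tlr4 they were Tnfsf12, Clec5a and Traf1 (r = 0.91, 0.83 and 0.83), and for Ly96 they were Tnfsf14, Il1a and Myd88 (r = 0.90, 0.89 and 0.87). For Tlr5 they were Tlr9, Ikzf1 and Cxcr3 (r = 0.82, 0.80 and 0.78). The r of Tlr5 and Tlr9 was 0.51 without littermate 2 and CLE 1, the lanes with the fewest counts.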

How the data were processed

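Per the labels' protocols, RNA was extracted from frozen skin with a Qiagen column kit and hybridised after the manufacturer's protocol. The deposited signal per gene and library is a barcode count times 1 lane factor, as its steps show. No source used here says how the authors set that factor. Whole counts were recovered by dividing each lane by its step, with 100% of values at most 0.02 units from a whole step. Of 561 gene probes, 549 were named through RefSeq. Background was taken per lane as 2 SD over the average of 8 negative controls, and genes above it in 4 or more of 12 libraries were tested. This left 451 genes; 12 reference genes stayed out.

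Replicates are separate mice, numbered in accession order. limma 3.58.1 (R 4.3.3) with a variance trend was run on log2(value + 1), a scale that understates differences of low genes, at an adjusted p threshold of 0.05. edgeR 4.0.16 and DESeq2 1.42.0 on recovered counts, and other scalings, filters and subsets, were alternatives. The fit was first tested on simulated data. Genes named are all members and, for each list, up to 4 calls with the largest difference or, without calls, those with the smallest p. For each member, the 3 genes most like it by Pearson's r are also named. Members and lists were chosen with earlier results of these data known, and 1 listed neutrophil marker is not reported here. The rule that leaves genes below background in all 4 littermates out of list counts was added after seeing the data. Where the series description and the sample labels disagree, on TLR9 and on the extent of Merkel cell loss, the labels were followed. Counting error alone is not the error given: SDs and SEs are between mice.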

Additional observations from a re-analysis of the deposited data

Results flagged for a closer look

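Within-group values were checked for a single library far from the others, in deposited units and not on the log2 scale of the fits. Of 18 groups of 4, 3 met the rule. Chance flags about 1 in 20 if values are normally distributed, which was not tested. Cd14 in CLE skin had 1 library at 6533 units, with the next at 412 units, a gap of 0.953 of the group's range. Tlr2 in CLE skin had the same library, CLE 1, at 767 units, with the next at 154 units and a gap of 0.853 of the range. Tlr2 in littermate skin had littermate 2 at 89.0 units, with the next at 54.5 units and a gap of 0.830 of the range. That last value lay below its lane's background. CLE 1 and littermate 2 are the lanes with the fewest recovered counts, and the part of this in the values was not tested. At 6533 units Cd14 in CLE 1 was far above its lane's background of 106 units.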

How the results depend on the processing

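Members called (main counts 0 in each comparison) depended on the setting. For CLE against littermate, array weights gave 1 and DESeq2 gave 2. For Merkel het CLE against littermate, median centring, quantile normalization, edgeR and leaving out littermate 2 with CLE 1 gave 1 each, DESeq2 gave 2 and array weights gave 3. For diseased against littermate, median centring and background subtraction gave 1 each, edgeR gave 2, DESeq2 gave 3 and array weights gave 4. Leaving out 1 library at a time gave 0 to 3 members for CLE, 0 to 2 for Merkel het CLE and 0 to 3 for both against littermate, and 0 to 0 for the other comparisons. The members called in these settings were Tlr1, Tlr2 and Cd14, besides Ly96 with array weights.

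Genes called over the panel moved more. For CLE against littermate, 0 became 2 with median centring, 9 with quantile normalization, 1 with background subtracted, 108 with array weights, 1 with edgeR and 94 with DESeq2. Merkel het CLE against littermate held 53, which became 85 with median centring, 80 with quantile normalization, 23 with genes above background in all 12 libraries, 31 with no filter, 34 with a pseudocount of 16, 185 with array weights, 87 with edgeR, 142 with DESeq2, and 0 with TLR9 ko/ko libraries alone or without the K14Cre+ littermates. Merkel het CLE against CLE held 1 call, which became 7 on the reference genes, 31 with DESeq2, 3 without littermate 2 and CLE 1, and 0 in the other settings that moved it. For diseased against littermate, 46 became 91 with median centring, 85 with quantile normalization, 12 with genes above background in all libraries, 11 with a pseudocount of 16, 73 with background subtracted, 196 with array weights, 91 with edgeR, 136 with DESeq2, 29 with a random block on the title number, 4 without littermate 2 and CLE 1, and 0 with TLR9 ko/ko libraries alone or without the K14Cre+ littermates. The disease score trend gave 0 genes, and 7 with DESeq2. Leaving out 1 library at a time gave 0 to 138, 2 to 94, 0 to 28, 0 to 131 and 0 to 0 genes in the same order.

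Signs that turned belong to small differences, and the cause was not tested. Tlr5 for CLE against littermate was -0.069 on the reference genes, -0.46 with median centring, -0.62 with quantile normalization, -0.22 with background subtracted, -0.26 with edgeR, -0.24 with DESeq2, -0.12 in TLR9 ko/ko libraries and -0.13 without the K14Cre+ littermates. Under median centring, Ly96 was -0.036 for CLE, -0.074 for Merkel het CLE and -0.055 for both against littermate, and under quantile normalization -0.12, -0.082 and -0.099. Tlr5 for Merkel het CLE against littermate was 0.0046 with array weights and 0.015 without littermate 2 and CLE 1, and for diseased against littermate 0.11 and 0.055. For Merkel het CLE against CLE, Tlr2 was 0.43 without littermate 2 and CLE 1; Tlr5 was 0.083 with quantile normalization, 0.13 with background subtracted, 0.012 with edgeR and 0.022 with DESeq2; Tlr4 was 0.13 with median centring, 0.12 with quantile normalization, 0.14 with background subtracted, 0.52 with array weights, 0.13 with edgeR, 0.14 with DESeq2, 0.0060 in TLR9 ko/ko libraries and 0.48 without littermate 2 and CLE 1. Ly96 there was 0.035 with quantile normalization, 0.093 with edgeR and 0.13 with DESeq2, and Cd14 was -0.54 with edgeR and -0.51 with DESeq2. The Ly96 slope was 0.075 with array weights. Over single left-out libraries the ranges were -0.14 to 0.25, -0.36 to 0.015 and -0.24 to 0.13 for Tlr5 in CLE, Merkel het CLE and both against littermate. Between the disease groups they were -0.89 to 0.43 for Tlr2, -0.46 to 0.48 for Tlr4 and -0.25 to 1.72 for Cd14. For the slopes they were -0.15 to 0.23 for Ly96 and -0.22 to 2.29 for Cd14. The differences of Cd14, Tlr1, Tlr2 and Tlr4 from littermates kept their sign in all settings run, with Cd14 for Merkel het CLE between 2.38 and 3.87 and Tlr1 between 1.57 and 3.15. No paired analysis was possible because the labels number no replicates and 1 title number only, 23, is shared between groups. Blocking randomly on all title numbers, 167a and 38 included (consensus correlation 0.21), called 0 members. Among the 4 mice numbered 23, Merkel het CLE minus littermate was 2.19 for Tlr1 and 2.06 for Cd14, against 1.72 and 3.93 among the other mice of both groups.

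Depth limits Tlr1, Tlr2 and Cd14 in littermate 2 and Tlr1 in CLE 3, where recovered counts lay below background. With 4 mice a group and 2 TLR9 ko/ko Merkel het CLE mice, the TLR9 genotype could not be compared within that group with any precision.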
